A study of Mus musculus with 12 samples.

Results

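Expression of the semaphorins and of their receptors, the plexins and neuropilins, was examined in the gastrocnemius, a calf muscle, of male mice by RNA sequencing. The family comprised 31 genes of the 43432 in the count table: 20 semaphorins, 9 plexins and 2 neuropilins. They were taken by symbol and by a total of at least 10 counts over the 12 libraries, which all 31 met; the lowest totals were 15 counts (Sema5b) and 25 counts (Sema4f). The family was chosen by the measured difference of 1 member, Sema3a, between the genotypes after the run. Values from that contrast are therefore given as a description, with no test.

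Semaphorins are secreted or membrane-bound signal proteins, first known for steering growing axons, and plexins are their receptors. Secreted semaphorins of class 3 mostly need a neuropilin, a co-receptor that also binds VEGF, to reach a plexin of the A type, whereas membrane semaphorins bind plexins directly. The cytoplasmic part of a plexin acts on small GTPases of the Ras and Rap type and so changes the cytoskeleton and adhesion; in muscle tissue these proteins are known from motor axons, blood vessels, immune cells and the muscle's own stem cells.

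The mice were fl/fl (WT) or cFeimin MKO (MKO), a knockout of cellular Feimin, and were either sedentary or sampled after 90 min of running at 60% of their maximal speed. Each of the 4 groups held 3 libraries. The WT animals carried the floxed alleles. The sources used here give neither the Cre driver of the knockout, nor the age and strain of the mice, nor the time from the run to sampling. Nothing states that the libraries of a group came from separate animals, so the p-values rest on the spread between these libraries, which may be technical.

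Library totals lay between 14324010 and 14563501 counts, and 3 counts in a library corresponded to 0.181 to 0.222 CPM (counts scaled to library size). Taking B230219D22Rik as the Feimin gene, an assignment from general knowledge, its level was 21.6 to 29.9 CPM in the 6 WT libraries and 3.52 to 6.13 CPM in the 6 MKO libraries, the order the labels give. All 10 skeletal muscle fibre markers had counts in every library, with a summed level of 107000 to 155000 CPM. Replicate 3 of sedentary MKO, 5 of exercised WT and 4 of exercised MKO stood apart in earlier results of these data, and counts below were repeated without them. In bulk muscle, fewer cells of a type and less RNA per cell cannot be told apart.

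Membrane semaphorins made up most of the family's transcripts. To compare genes, levels were divided by exon length (CPM per kb). Over the 12 libraries, membrane semaphorins held a median of 60.6% of the family's summed level per kb, class 3 semaphorins 17.2%, plexins 18% and neuropilins 5.37%. Sema6c, a transmembrane semaphorin of class 6, alone held 24.1% to 37.7%. Its mean level was 14.5 CPM per kb, and its lowest library (11.5) lay above the highest library of the next gene, Sema7a (6.02).

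Sema7a, which is held in the membrane by a lipid anchor and binds plexin C1 and integrins, had a mean of 4.49 CPM per kb. Plxnd1, a plexin known from blood vessels, had 4.38 and Sema4d, the ligand of plexin B1, had 3.88. The library ranges of these 3 genes overlapped, at 2.92 to 6.02, 3.63 to 5.24 and 3.02 to 4.85 CPM per kb, so their order is not set apart from the spread. The leading secreted semaphorin was Sema3c at 2.64 CPM per kb, followed by Sema3g, Sema3b and Sema3f at 1.84, 1.63 and 1.61. Nrp1, the co-receptor for Sema3a and VEGF-A, stood at 2.05 and Nrp2, the co-receptor for Sema3f, at 0.611 CPM per kb.

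At the low end, Sema3a ranked 24th of 31 with 0.0641 CPM per kb, from 5 to 26 counts per library. Of the 31 genes, 24 passed the filter on low counts and were tested. The other 7 were the receptors Plxnc1 and Plxna3 and the semaphorins Sema4g, Sema3e, Sema4f, Sema3d and Sema5b, at means of 0.0119 to 0.0632 CPM per kb. Among these, Plxna3, Sema3d, Sema3e, Sema4f and Sema5b had 0 counts in at least 1 library, which allows a level up to the value of 3 counts given above. Sema3e is the direct ligand of plexin D1; it had 0 to 10 counts per library while Plxnd1 was among the highest members. Plxnc1, the receptor of Sema7a, had 3 to 16 counts.

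**Figure D1:**
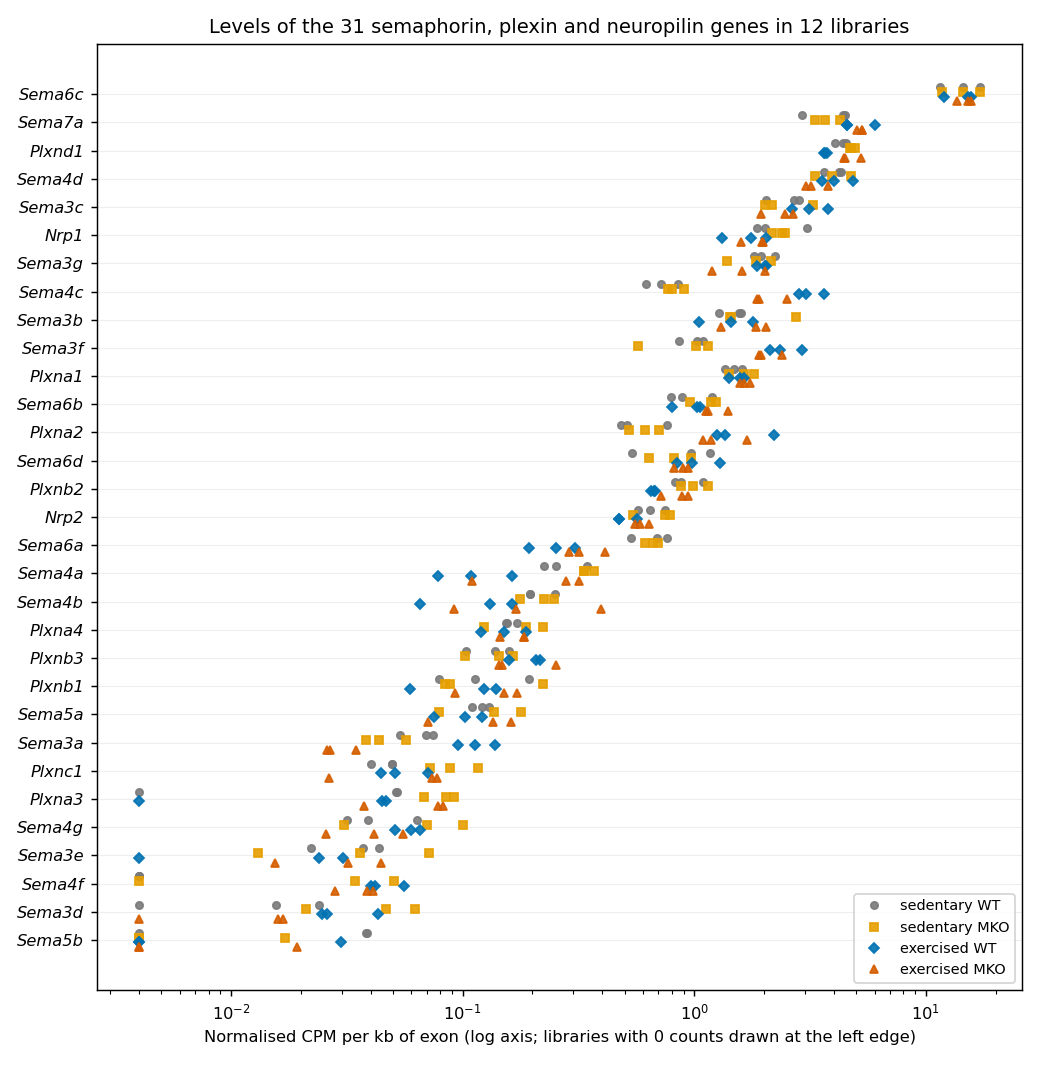
Normalised CPM per kb of exon (log axis) of the 31 genes in each of the 12 libraries, ordered by mean; points are libraries, coloured by group, and libraries with 0 counts are drawn at the left edge. Sema6c stands above all other members, Sema3a is 24th, and the groups separate visibly for Sema4c, Sema3f, Plxna2 and Sema6a.

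Running changed 4 of the 24 tested members in WT muscle: Sema4c, Sema3f and Plxna2 rose and Sema6a fell (edgeR, adjusted p under 0.05). Of all 14486 genes tested, 8.24% passed in this comparison, 4.14% higher and 4.1% lower. The same 4 members passed, each in the same direction, in the separate libraries of MKO muscle, where 4.05% of all genes passed (2.29% higher and 1.75% lower). The median log2 fold change over the 24 members was -0.01 in WT and -0.04 in MKO, against -0.01 and 0 over all genes. The groups did not overlap for 12 of the 24 tested members in WT, against 27.3% of all genes, and for 8 of them in MKO, against 21.7%.

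Sema4c had the largest log2 fold change of the 24 members in both genotypes. It encodes a transmembrane semaphorin of class 4 that binds plexin B2. Its level was 3.3, 2.83 and 3.91 CPM in the sedentary WT libraries and 16.7, 14 and 13 CPM in the exercised ones. In MKO it was 3.53, 4.14 and 3.69 CPM at rest and 8.77, 11.6 and 8.55 CPM after the run. Every exercised library lay above every sedentary one, and the exercised MKO libraries all lay below the exercised WT ones. The log2 fold change with the run was 2.12 ± 0.16 (SE) in WT (edgeR, adjusted p = 2.55e-05) and 1.35 ± 0.16 in MKO (adjusted p = 0.00103). Sema4c (chromosome 1, 36548639 to 36558349, minus strand, GRCm38) shares 334 exonic bases with the antisense gene D430040D24Rik, and the sources used here do not say whether counting used strand. That gene had 7 to 17 counts per library, against 42 to 62 counts of Sema4c at rest and 119 to 236 after the run.

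Sema3f, a secreted semaphorin that signals through neuropilin 2, had 5.36, 4.45 and 5.69 CPM in sedentary WT and 12.2, 11 and 15.2 CPM in exercised WT. In MKO it had 5.93, 5.28 and 2.96 CPM at rest and 10.1, 12.4 and 9.92 CPM after the run. All 6 exercised libraries were above all 6 sedentary ones, and sedentary MKO replicate 3 was the lowest of all. The log2 fold change was 1.31 ± 0.22 in WT and 1.20 ± 0.22 in MKO, with adjusted p = 0.00312 and 0.00979 (edgeR). Without exercised MKO replicate 2 the MKO value did not pass (adjusted p = 0.0514). The gene lies on chromosome 9, 107681500 to 107710475, minus strand.

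Plxna2, an A-type plexin that receives class 3 signals with neuropilins and also binds Sema6a, rose in both genotypes. Its levels were 13.1, 8.29 and 8.78 CPM in sedentary WT and 23.2, 21.5 and 38.1 CPM in exercised WT. In MKO they were 12.1, 10.5 and 9.01 CPM at rest and 18.7, 29 and 20.3 CPM after the run. The groups did not overlap, and exercised WT replicate 5 was the highest. By edgeR, the run effect in log2 units was 1.46 ± 0.25 in WT (adjusted p = 0.00402) and 1.11 ± 0.25 with MKO (adjusted p = 0.0312). The MKO call was lost without sedentary MKO replicate 1, 2 or 3 (adjusted p = 0.0585, 0.101 and 0.111) and without exercised MKO replicate 2 or 4 (0.141 and 0.0604). Plxna2 lies on chromosome 1, 194618218 to 194816869, plus strand.

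Sema6a, a transmembrane ligand of plexins A2 and A4, moved the other way. It had 4.67, 6.68 and 6.04 CPM in sedentary WT and 2.69, 1.7 and 2.21 CPM in exercised WT. In MKO it had 5.8, 6.15 and 5.38 CPM at rest and 3.63, 2.52 and 2.8 CPM after the run. All exercised libraries lay below all sedentary ones. The log2 fold change was -1.39 ± 0.20 in WT (edgeR, adjusted p = 0.000993) and -0.95 ± 0.19 in MKO (adjusted p = 0.0144). Without sedentary MKO replicate 2, exercised MKO replicate 2 or exercised MKO replicate 4 the MKO call was lost (adjusted p = 0.0591, 0.0712 and 0.057). Thus a plexin A2 transcript rose with the run while that of its class 6 ligand fell, and the more abundant Sema6c had -0.01 ± 0.17 in WT and 0.04 ± 0.17 in MKO.

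**Figure D2:**
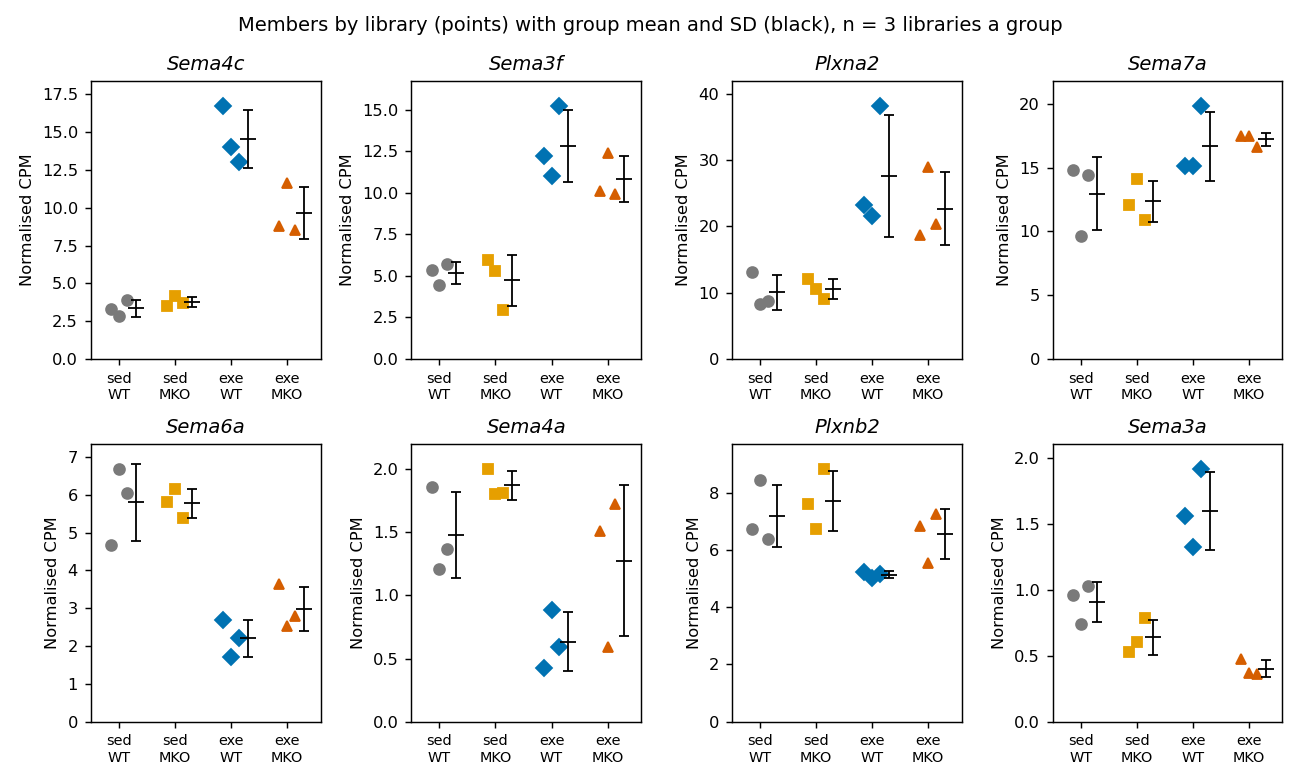
Normalised CPM of 8 members in each library (coloured points), with the group mean and SD in black (n = 3 libraries per group; axes start at 0). Exercised libraries lie above sedentary ones for Sema4c, Sema3f, Plxna2 and Sema7a and below them for Sema6a; for Sema3a the exercised WT libraries are highest and the exercised MKO libraries lowest.

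Averaged over the genotypes, the run changed 7 of 24 members (29.2%), against 13.6% of all genes (6.16% higher and 7.4% lower): Sema7a joined the 3 that rose, and Sema4a and Plxnb2 joined Sema6a among those that fell. With libraries scaled by total counts alone, which moved the median of all genes to -0.12, the split was 3 higher and 6 lower. The share of all genes in that fit is not given here. Groups did not overlap for 5 members, against 7.58% of all genes. The 4 genes above passed with adjusted p = 3.57e-06 (Sema4c), 0.000141 (Sema6a), 0.000224 (Sema3f) and 0.000519 (Plxna2). The averaged comparison uses the same libraries as the comparisons within each genotype. In the lists of genes that act with the family, given below, 22.2% of co-receptors and partners passed here, and 31.2% of intracellular plexin effectors. For VEGF ligands and receptors the share was 50%, and for other guidance families 45%.

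The further 3 were smaller changes near the threshold. Sema7a had 14.8, 9.64 and 14.4 CPM in sedentary WT and 12.1, 14.1 and 10.9 in sedentary MKO. After the run it had 15.1, 15.1 and 19.8 CPM in WT and 17.5, 17.5 and 16.6 in MKO. The exercised libraries were all above the sedentary ones, by a narrow margin in WT. Its averaged log2 fold change was 0.42 ± 0.12 (edgeR, adjusted p = 0.0329). Leaving out sedentary MKO replicate 1 or 3, exercised WT replicate 5 or any exercised MKO library ended the call (0.0539 to 0.0759).

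Sema4a, a transmembrane semaphorin known from immune cells, had 1.86, 1.21 and 1.37 CPM in sedentary WT and 2, 1.8 and 1.81 in sedentary MKO. After the run it had 0.425, 0.886 and 0.59 CPM in WT and 1.51, 0.593 and 1.72 in MKO. The WT groups were apart, while exercised MKO replicates 1 and 4 lay among the sedentary WT libraries. The averaged log2 fold change was -0.88 ± 0.25 (edgeR, adjusted p = 0.0352). It did not pass without sedentary WT replicate 1 or 4, any sedentary MKO library, or exercised WT replicate 3 or 5 (0.0558 to 0.0959).

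Plxnb2, the receptor of Sema4c, had 6.74, 8.43 and 6.38 CPM in sedentary WT and 7.59, 6.75 and 8.83 in sedentary MKO. After the run it had 5.24, 5.02 and 5.16 CPM in WT and 6.85, 5.56 and 7.26 in MKO. Exercised WT was lowest with little spread, and the MKO groups overlapped. Its averaged log2 fold change was -0.36 ± 0.10 (edgeR, adjusted p = 0.0391), a call that 9 of the 12 fits without 1 library did not make (0.0504 to 0.0931): it held without sedentary WT replicate 4, sedentary MKO replicate 2 or exercised MKO replicate 4. Within each genotype Plxnb2 did not pass (edgeR, WT -0.48 ± 0.15, adjusted p = 0.0733, and MKO -0.24 ± 0.14, adjusted p = 0.506). In the averaged comparison the ligand gene Sema4c rose, while the fall of its receptor gene was near the threshold.

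The neuropilins did not pass. Nrp1 was 22.7 ± 6.39 CPM (SD, n = 3) in sedentary WT and 16.7 ± 3.59 in exercised WT, and in MKO 22.9 ± 1.5 before and 18.1 ± 2.16 after. Its averaged log2 fold change was -0.39 ± 0.14 (edgeR, adjusted p = 0.0868) and that of Nrp2 was -0.30 ± 0.11 (adjusted p = 0.0974). Of the 9 tested plexins and neuropilins, Plxna2 was higher and Plxnb2 lower (22.2%, against 13.6% of all genes), and 7 did not pass. Of the 5 tested class 3 semaphorins, 1 passed, Sema3f (20%, against the same 13.6%). The others were Sema3c (0.13 ± 0.15), Sema3g (-0.08 ± 0.14), Sema3b (-0.08 ± 0.19) and Sema3a (0.07 ± 0.27). Of the 10 tested membrane semaphorins, 2 were higher and 2 lower (40%, against 13.6% of all genes, 6.16% higher and 7.4% lower). Those that did not pass included Sema4d (-0.12 ± 0.11), Sema6b (0.06 ± 0.13) and Sema6d (0.17 ± 0.18). The scarcer Sema4b and Sema5a had -0.40 ± 0.32 and -0.18 ± 0.23 at 0.192 and 0.118 CPM per kb. Among the other plexins, Plxna1 (1.57 CPM per kb) had the smallest coefficient of variation over the 12 libraries of any tested member (8.62%, from 12.3 to 16.4 CPM) and a change of 0.04 ± 0.08. Plxna4, Plxnb1 and Plxnb3, at 0.166, 0.126 and 0.162 CPM per kb, had -0.06 ± 0.16, -0.09 ± 0.33 and 0.48 ± 0.21.

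**Figure D3:**
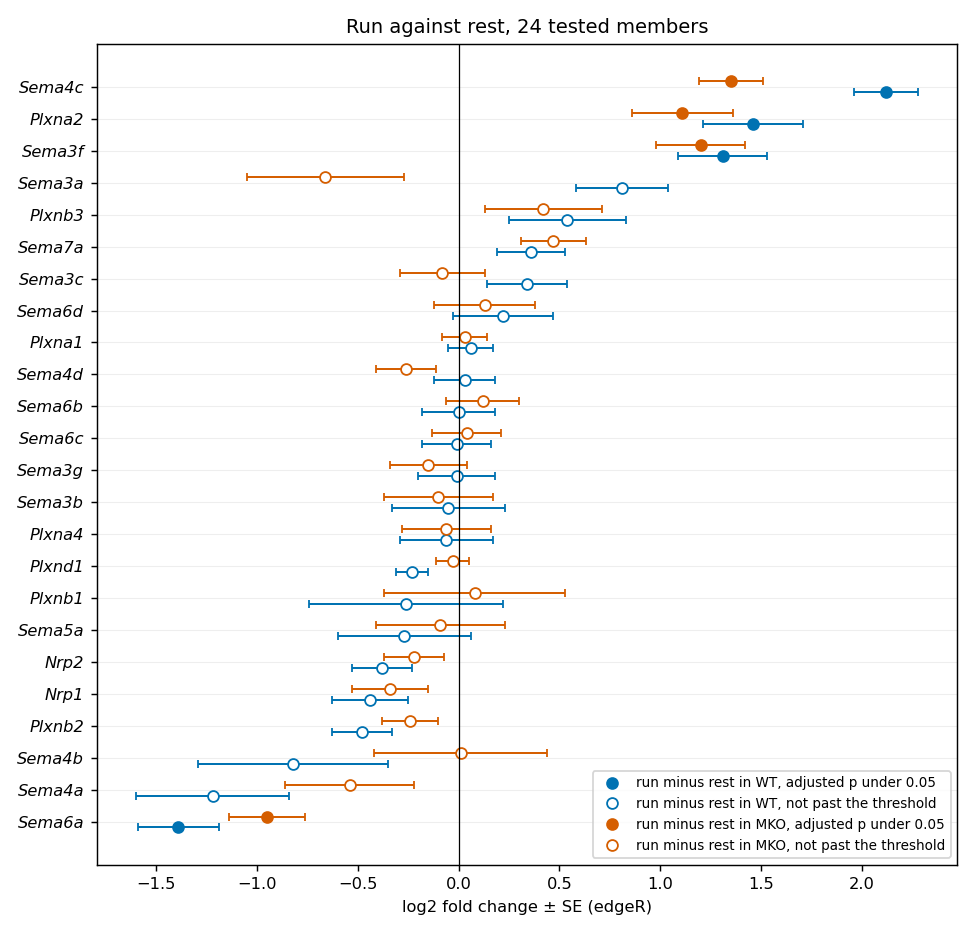
Log2 fold change ± SE with the run in WT (blue) and MKO (orange) for the 24 tested members; filled circles passed at an adjusted p under 0.05 (edgeR). Sema4c, Plxna2 and Sema3f are filled on the right and Sema6a on the left in both genotypes.

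Markers of other cells were read beside these results. All 10 markers of fibroblasts and fibro-adipogenic progenitors had negative log2 fold changes in both genotypes, and their summed level was 520 to 651 CPM in sedentary WT and 683 to 699 in sedentary MKO. After the run it was 313 to 341 CPM in WT and 337 to 473 in MKO. Of the 10, 5 passed in WT, against 8.24% of all genes, and 4 in MKO, against 4.05%. Of 10 endothelial markers 8 were negative in each genotype. In WT 2 of the 10 passed as higher and 2 as lower, and in MKO 1 and 3, against the same shares of all genes. Their summed levels were 240 to 289, 223 to 291, 232 to 263 and 179 to 248 CPM in the same order. Macrophage markers summed to 56.8 to 65.1, 76 to 105, 34 to 42 and 45.8 to 87.5 CPM. Schwann cell markers ranged from 77.3 to 186, 88.7 to 408, 92.4 to 235 and 70.5 to 314 CPM. Satellite cell markers ranged from 31.5 to 47.7, 37.7 to 68.2, 33.1 to 38.6 and 31 to 39.7 CPM, and smooth muscle and pericyte markers from 446 to 558, 429 to 483, 407 to 521 and 321 to 422 CPM. With the run, 2 of 9 tested macrophage markers passed as lower in WT and 1 in MKO. For 8 smooth muscle and pericyte markers these counts were 2 and 1, and for 7 satellite cell markers 0 and 2, all lower. For 10 Schwann cell markers they were 0 and 0. Of all genes, 4.1% passed as lower in WT and 1.75% in MKO. All 10 muscle fibre markers had positive log2 fold changes in both genotypes, of which 0 passed (edgeR). At an unadjusted p under 0.05 there was 1 of these 10 in WT, against 21.3% of all genes, and 0 in MKO, against 15.1%. No listed marker of these cells was at 0 in every library. Their part in the changes of the family was not tested.

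Promoter sequences are shown for Sema4c and Plxna2, which rose in both genotypes, and for Sema3a, which chose the family. In the RefSeq promoter table (GRCm38.p6), 26 of the 31 members matched. Sema3f and Sema6a were among those that did not. The 250 bases before each start were searched on both strands for the AP-1 motif TGANTCA, the E-box CACGTG and the cAMP response element TGACGTCA, none of which contains another. These genes had 37 windows in all, since some have several starts. The AP-1 letters were found in 3 of the 37 (1 each of Sema4c, Sema4d and Sema6b; 8.11%), against 6.75% of 32851 promoters. The E-box was in 2 (Sema4b and Sema6d; 5.41%), against 6.02%, and the cAMP response element in 0, against 1.55%. The Sema4c window (chr1:36558382-36558631, minus strand) also covers exonic bases of D430040D24Rik, and its AP-1 match, in capitals, starts 22 bases before the RefSeq start. A further Sema4c start in the table has a window (chr1:36557558-36557807, minus strand) with none of the 3 motifs. The Plxna2 window (chr1:194619579-194619828, plus strand) and the Sema3a window (chr5:13396534-13396783, plus strand) held none of the 3 motifs, and both lie inside the gene's span in GENCODE. The Sema7a window, not shown, also held none of the 3 motifs. A match is a description of letters and no binding was measured.
Sema4c: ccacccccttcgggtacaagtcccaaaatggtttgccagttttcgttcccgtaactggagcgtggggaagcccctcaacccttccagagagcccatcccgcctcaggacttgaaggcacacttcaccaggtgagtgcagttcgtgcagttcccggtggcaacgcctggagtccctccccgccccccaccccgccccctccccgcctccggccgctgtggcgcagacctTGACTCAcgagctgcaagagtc
Plxna2: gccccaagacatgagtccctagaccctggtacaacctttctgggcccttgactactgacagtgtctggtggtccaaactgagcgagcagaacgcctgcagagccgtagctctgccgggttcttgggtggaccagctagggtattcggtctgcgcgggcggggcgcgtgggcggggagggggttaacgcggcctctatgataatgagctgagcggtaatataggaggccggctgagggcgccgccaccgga
Sema3a: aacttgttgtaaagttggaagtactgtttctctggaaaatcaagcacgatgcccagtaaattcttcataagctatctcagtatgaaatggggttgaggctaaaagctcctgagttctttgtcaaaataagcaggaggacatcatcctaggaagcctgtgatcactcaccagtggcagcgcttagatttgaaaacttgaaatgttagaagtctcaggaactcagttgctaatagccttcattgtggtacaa

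Genes that act with the family were read from 4 lists. Among 15 co-receptors and receptor partners, 9 were tested. In WT, Met, the receptor kinase that joins plexin B, rose by 0.61 ± 0.11 on the log2 scale (edgeR, adjusted p = 0.00622) and the endocytic receptor gene Lrp1 fell by 0.62 ± 0.11 (adjusted p = 0.00402). In MKO, 1 passed: Lrp1, at -0.62 ± 0.11 (edgeR, adjusted p = 0.00689). The share past the threshold was 22.2% in WT, against 8.24% of all genes, and 11.1% in MKO, against 4.05%.

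Of 35 intracellular plexin effectors, 32 were tested, and 5 rose and 3 fell with the run in WT (25%, against 8.24% of all genes). Among the leading ones were Mras, a Ras-type GTPase, which rose (1.45 ± 0.21, edgeR, adjusted p = 0.00116), and, among those that fell, Dpysl3 (-1.16 ± 0.23, adjusted p = 0.00817) and Farp1 (-0.80 ± 0.17, adjusted p = 0.0118). Dpysl3 encodes a collapsin response mediator protein, of a family that acts downstream of Sema3a in axons. Of that family, Dpysl2 also fell (-1.25 ± 0.27, adjusted p = 0.0125) and Dpysl5 rose (1.48 ± 0.37, adjusted p = 0.0271); these 2 were named after their values were seen. In MKO, 1 rose and 1 fell (6.25%, against 4.05% of all genes), the latter being Mical1, an enzyme that disassembles actin (-0.82 ± 0.16, edgeR, adjusted p = 0.0141). The list's median log2 fold change was 0.08 in WT and 0.06 in MKO.

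The list of VEGF ligands and receptors also held Hgf, which had no counts in any library. Of its 9 genes, the 8 VEGF ligands and receptors were tested. In WT 1 passed (12.5%, against 8.24% of all genes): Flt1, VEGF receptor 1, at 0.75 ± 0.18 (edgeR, adjusted p = 0.0205). In MKO 0 passed, against 4.05% of all genes, and 2 had an unadjusted p under 0.05, against 15.1% of all genes. Of 27 genes of other guidance families, 20 were tested. Epha2, an ephrin receptor gene, rose from means of 1.71 to 5.27 CPM in WT (1.62 ± 0.19, adjusted p = 0.000362) and from 1.6 to 4.61 CPM in MKO (1.53 ± 0.20, adjusted p = 0.00147). The netrin gene Ntn1 fell in both (-0.97 ± 0.23, adjusted p = 0.0205, and -0.89 ± 0.22, adjusted p = 0.0475). In all, 1 gene of that list rose and 3 fell in WT (20%, against 8.24% of all genes), and 1 rose and 2 fell in MKO (15%, against 4.05%). None of the genes of these 4 lists passed between the genotypes at rest or after the run (edgeR); at an unadjusted p under 0.05 there were 2 of 9, 2 of 32, 0 of 8 and 2 of 20 at rest, against 3.76% of all genes. After the run there were 4, 7, 1 and 2 in the same order of lists, against 16% of all genes.

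At rest, no member was called between MKO and WT muscle: 0 of 24 passed by edgeR, DESeq2 or limma-voom, against 0.0069% of all genes, and 0 had an unadjusted p under 0.05, against 3.76% of all genes. The sedentary levels of Sema3a do not enter the contrast that chose the family, but the fit takes its spread from all 12 libraries. Sema3a had 0.962, 0.742 and 1.03 CPM in sedentary WT (14, 11 and 15 counts) and 0.533, 0.602 and 0.786 CPM in sedentary MKO (8, 9 and 13 counts). The groups overlapped, since the highest MKO library lay above the lowest WT one. The log2 fold change, MKO minus WT, was -0.49 ± 0.32 with a 95% interval of -1.20 to 0.21 (edgeR, adjusted p = 1).

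The groups at rest did not overlap for 1 tested member, against 10.3% of all genes. This was Plxnd1, with 31.9, 32.9 and 29.6 CPM in WT and 36, 34.8 and 34.5 CPM in MKO (0.16 ± 0.08, adjusted p = 1). The 9 tested plexins and neuropilins all had log2 fold changes above 0, from 0.02 to 0.16 with a median of 0.08, against a median of 0 over all genes; with total counts alone the latter was 0.09. The members that changed most with the run had the following log2 differences at rest, MKO minus WT: 0.18 ± 0.18 for Sema4c, -0.14 ± 0.23 for Sema3f, 0.07 ± 0.26 for Plxna2 and -0.01 ± 0.17 for Sema6a. For Sema6a the 95% interval was -0.39 to 0.37.

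After the run, Sema3a was lower in MKO, the difference on which the family was chosen. Sema3a, the secreted semaphorin known for collapsing axon growth cones through neuropilin 1, lies on chromosome 5, 13125414 to 13602565, plus strand. Its level was 1.56, 1.33 and 1.92 CPM in exercised WT (22, 18 and 26 counts). The MKO libraries had 0.479, 0.37 and 0.359 CPM (7, 5 and 5 counts). Each WT library was above each MKO library, and the log2 fold change was -1.96 ± 0.27. It was the 1 member of 24 past the threshold, against 0.0345% of all genes, and nothing is read from this count. Against rest, the exercised WT libraries were all higher than the sedentary WT ones (0.81 ± 0.23), and the exercised MKO libraries all lower than the sedentary MKO ones (-0.66 ± 0.39); these use the libraries that chose the family. With each library left out in turn, the difference after the run lay between -2.11 and -1.82, and it stayed past the threshold in 1 of the 12 fits.

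Described in the same contrast, 5 of the 24 tested members had groups that did not overlap, against 23.1% of all genes: Sema3a and Sema4c lower in MKO, and Plxnd1, Plxnb2 and Sema6b higher. Plxnd1 had 26.5, 27.4 and 26.8 CPM in WT and 38.3, 32.5 and 32.6 CPM in MKO, a log2 fold change of 0.36 ± 0.08. For Sema4c it was -0.59 ± 0.15, for Plxnb2 0.35 ± 0.15 and for Sema4a 1.01 ± 0.39. Sema3c, the leading secreted member, had 22.8 ± 4.13 CPM in WT and 16.8 ± 2.71 in MKO (-0.44 ± 0.21), a value that was -0.17 without the 3 libraries that stood apart. In this contrast log2 fold changes were positive for 9 of 9 tested macrophage, 10 of 10 fibroblast and 9 of 10 Schwann cell markers, against 51.1% of all genes. At rest they were positive for 9 of 9, 10 of 10 and 10 of 10 of these markers, against 50.5% of all genes. The other marker lists held both signs in both contrasts. The part of these cells in the values of the family was not tested.

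**Figure D4:**
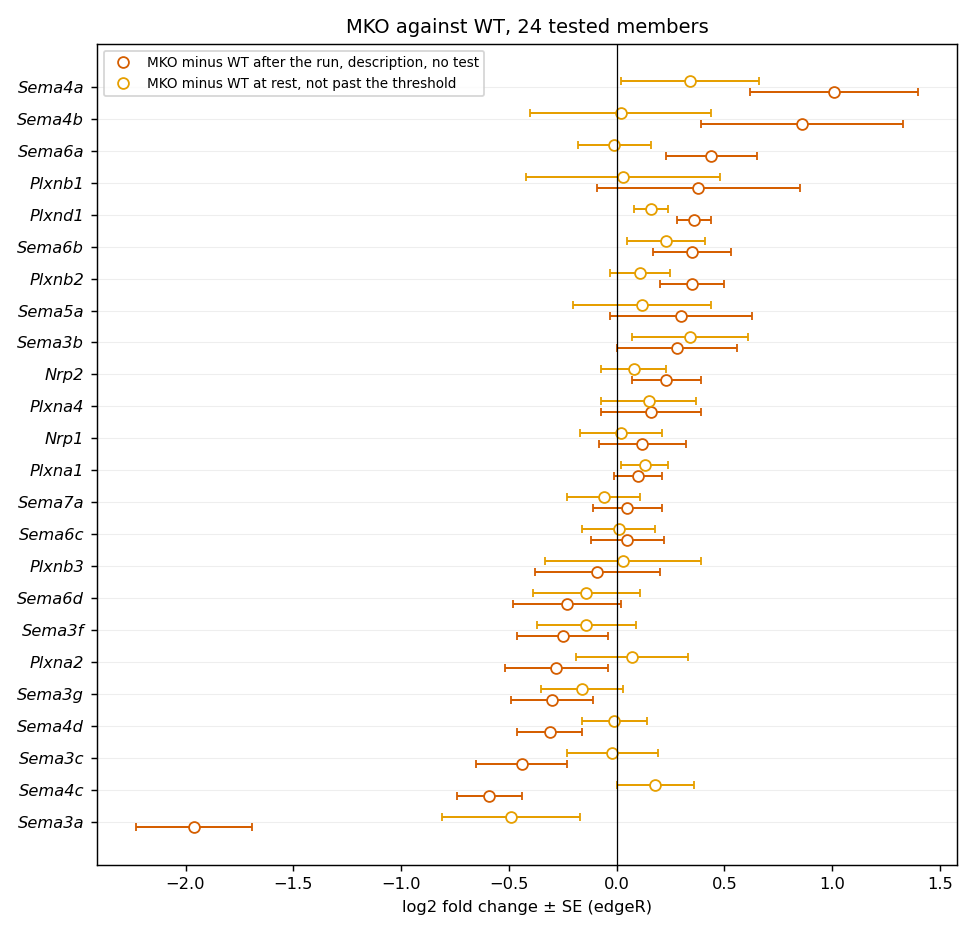
Log2 fold change ± SE of MKO minus WT for the 24 tested members after the run (orange, a description with no test) and at rest (yellow; none past an adjusted p of 0.05, edgeR). Sema3a, the value that chose the family, lies farthest left after the run at -1.96 and at -0.49 at rest.

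The difference of the run responses between the genotypes passed for 0 members (edgeR and DESeq2) and for 0% of all genes. At an unadjusted p under 0.05 there were 2 members, Sema3a and Sema4c, against 3.69% of all genes. This difference contains the contrast that chose the family. Sema3a is therefore in this count through that choice, and nothing is read from the count. For Sema4c it was -0.77 ± 0.23 with a 95% interval of -1.28 to -0.27 (edgeR, adjusted p = 0.983), and for Sema3a -1.47 ± 0.41. For the other 3 members that changed in both genotypes the intervals included 0: -0.79 to 0.56 for Sema3f, -1.13 to 0.43 for Plxna2 and -0.15 to 1.04 for Sema6a. The smaller run effects in MKO for these genes were thus not shown to differ from those in WT.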

How the data were processed

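The values were whole-number counts per Ensembl gene as deposited by the authors, for 43432 genes. Per the submitters' processing notes, the tools were HISAT2 2.2.1, StringTie 2.1.4, SAMtools 1.9, FastQC 0.12.1, DESeq2 1.40.2 and R 4.3, with the build GRCm38.p6. The counting tool, annotation and use of strand are not stated there or in the labels. Per the labels' protocols, 18 libraries were made; 12 were analysed here. A misspelt column name was taken as exercised MKO replicate 4. GENCODE M21 gave symbols for 42548 genes; 0.0875% of all counts fell on the 884 others.

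Counts were fitted with edgeR 4.0.16 (R 4.3.3) by its quasi-likelihood test: TMM factors (0.928 to 1.15), filterByExpr (minimum count 10, minimum total 15), 1 mean per group over all 12 libraries and 8 residual degrees of freedom. P-values were adjusted by Benjamini-Hochberg over all 14486 genes, with a threshold of 0.05. The biological coefficient of variation was 15.3%. Standard errors are the larger of those implied by the F statistic and by the p-value, and intervals are 95%. The script was tested on simulated data. No libraries of the same group were duplicates, and pairs from different groups were not checked for this.

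Alternatives were DESeq2 1.42.0, limma-voom (limma 3.58.1), median-of-ratios factors, total counts alone, no filter, 1 CPM in 3 libraries, only the groups compared, the replicate number as a block, each library left out, and 3 libraries left out together. Statistics are given for Sema3a, for members past the threshold and for up to 6 members per comparison by smallest p; partner genes, up to 4 per list and comparison, by p, except 1 effector gene whose values are left out here. Other values shown beside these, such as the members that changed with the run in the genotype comparisons, were chosen for their role. The members and lists were chosen with earlier results of these data known.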

Additional observations from a re-analysis of the deposited data

How the results depend on the processing

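Of 804 values of named members under the alternatives, 735 kept their direction and side of the threshold, 64 no longer passed, 1 newly passed and 4 reversed. The counts of members in this section stand without the share of all genes in each fit, except for some fits after the run. That share moves between fits. With the run in WT, 4 or 5 members passed under every alternative, and Plxna2, Sema3f, Sema4c and Sema6a were always among them, there and averaged over the genotypes. At rest and for the difference of responses, 0 members passed under all alternatives. In MKO the 4 members became 2 without the 3 libraries that stood apart (Sema3f and Sema4c) and 1 to 4 with each library left out; the count was 1 (Sema4c) without exercised MKO replicate 2, and 2 without sedentary MKO replicate 2 or exercised MKO replicate 4. Averaged over the genotypes, the 7 became 4 with no filter and 4 to 6 with each library left out; the count was 4 without sedentary MKO replicate 1 or exercised WT replicate 5, and 5 without sedentary MKO replicate 3, where Sema7a, Sema4a and Plxnb2 did not pass and Nrp2 did. Without the 3 libraries, Sema7a (adjusted p = 0.13), Sema4a (0.0627) and Plxnb2 (0.0845) no longer passed; Sema4a (0.0595) and Plxnb2 (0.096) did not pass by DESeq2. After the run, the count of 1, Sema3a, was 0 with total counts alone, no filter, only the groups compared, or the 3 libraries left out. Of all genes, 5 passed after the run in the main fit and 5 with total counts alone. The number was 2 with no filter, 4 with only the groups compared and 95 by DESeq2. With each library left out the count of members was 0 to 1, and Sema3a stayed past the threshold in 1 of these 12 fits. The log2 fold change of Sema3a was -2.11 to -1.74.

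Replicate numbers did not pair the samples: deviations of same-numbered libraries correlated at -0.15 to 0.08. With the replicate number as a block, 4 members passed averaged over the genotypes and 0 after the run, and Sema6a in MKO had an adjusted p of 0.118. Values that reversed were Sema3b at rest, -0.04 without sedentary MKO replicate 1 (-0.04 to 0.50 with each library left out); Sema3a averaged over the genotypes, -0.05 with total counts alone; and, without the 3 libraries, the differences of responses of Sema3c (0.10) and Sema4d (0.04). The causes were not tested. Total counts alone moved the median of all genes to -0.1 in WT and -0.15 in MKO. Using only the groups compared was not run where all groups enter the comparison. Depth limits the 7 untested members and Sema3a, at 5 to 26 counts per library.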
